A study of Mus musculus with 3 samples.

Results

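Heart cells with transcripts of several vascular endothelial marker genes were examined in 3 droplet single-cell RNA libraries of mouse heart. A cell was taken as marker-positive when at least 4 of 10 endothelial genes (Pecam1, Cdh5, Kdr, Egfl7, Cldn5, Emcn, Tie1, Zfp366, Nova2 and St6galnac3) had 1 or more UMIs, the molecular tags that count captured transcripts. It also had no UMI of Npr3, an endocardial and fibroblast gene, and UMIs of at most 1 of Pdgfra, Csf1r, Mrc1, Abcc9 and Muc16, which mark fibroblasts, macrophages, pericytes and mesothelium. The cells were thus chosen by their measured UMIs of these genes, 5619 of 27497 deposited cells in all.

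Each library was made from 3 pooled hearts of NOD/SCID mice, which have no mature T or B cells. The mice had received an isotype control antibody or an immune checkpoint antibody on day 0 and day 7, and hearts were taken on day 14. The group titled PD1/PEM names pembrolizumab, an antibody raised against human PD-1, and the group titled PDL1/ATZ names atezolizumab, an antibody against PD-L1. The treatment tags of these libraries name the opposite antibody in each case, so groups are called by their titles here, and no difference can be assigned to an antibody by name. Since each group is 1 library, groups could not be tested against each other, and the intervals given cover counting error alone.

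Endothelial cells line the blood vessels of the heart. VE-cadherin (Cdh5), PECAM-1 (Pecam1) and claudin-5 (Cldn5) hold them together, VEGF receptors such as Kdr and Flt1 control their growth and survival, and Tie1 and Tek form the angiopoietin receptor system. Capillary cells of the heart take up fatty acids for the muscle through Cd36, Fabp4, Lpl and Gpihbp1, while arterial cells are marked by Sox17, Gja5 and Efnb2 and venous cells by Nr2f2 and Vwf. PD-L1, encoded by Cd274, can be displayed by endothelium and restrains lymphocytes that carry PD-1, encoded by Pdcd1.

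Marker-positive cells made up 1114 of 9510 isotype cells (11.7%, exact 95% interval 11.1 to 12.4), 1588 of 6388 PD1/PEM cells (24.9%, 23.8 to 25.9) and 2917 of 11599 PDL1/ATZ cells (25.1%, 24.4 to 25.9). Within each library, the share of cells taken by the rule rose with sequencing depth. In the isotype library the rule took 1.47% of cells in the shallowest of 4 depth classes of equal size and 25.7% in the deepest, in PD1/PEM 8.76% and 37.4%, and in PDL1/ATZ 9.19% and 48.9%. When every cell was thinned to 700 UMIs before the rule was applied, the shares were 0.931% in isotype, 2.59% in PD1/PEM and 9.53% in PDL1/ATZ. After thinning to 500 UMIs that were not mitochondrial they were 0.970%, 2.25% and 5.16%. The order isotype, PD1/PEM, PDL1/ATZ held at both depths, but the near-equal shares of the checkpoint libraries did not.

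Marker-positive cells held a median of 2299 UMIs in isotype, 2752 in PD1/PEM and 1478 in PDL1/ATZ, against 1204, 1302 and 832 in cells with 0 or 1 of the markers. Mitochondrial transcripts made up a median of 26.8%, 27.0% and 7.34% of their UMIs, so the PDL1/ATZ library stood apart from the others in depth and mitochondrial share. Summed over marker-positive cells, 2018664, 3277837 and 4612214 UMIs were not mitochondrial, and levels below are CPM, the counts scaled to a fixed total of these. A doublet score marked 13.9%, 7.18% and 12.0% of marker-positive cells, against 7.60%, 5.10% and 9.28% of all cells. Between isotype and PD1/PEM, 23 cell barcodes were shared, 8 of them of a marker-positive cell in either library, and PDL1/ATZ shared none with the others.

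The rule genes themselves describe the selection. Pecam1 stood at 707 CPM in isotype, 525 in PD1/PEM and 806 in PDL1/ATZ marker-positive cells, against 242, 160 and 178 CPM in cells with 0 or 1 marker. Cdh5 stood at 504, 468 and 534 CPM, Kdr at 405, 515 and 532, and Egfl7, a matrix protein secreted by endothelium, at 304, 324 and 647. Emcn, a sialomucin of capillary and venous endothelium, stood at 299, 315 and 551 CPM, and St6galnac3, a sialyltransferase, at 287, 388 and 671. Zfp366 was at 244, 209 and 433 CPM, Nova2, a splicing regulator, at 194, 195 and 300, Tie1 at 191, 156 and 215, and Cldn5 at 183, 205 and 110. The PDL1/ATZ library was the highest of the libraries for 9 of these genes and the lowest for Cldn5. Since the rule used these genes and depth differed between libraries, this order does not compare the libraries. No single marker was read in every selected cell: Pecam1 had a UMI in 77.0%, 68.6% and 69.8% of them, and Cldn5 in 30.2%, 36.3% and 16.1%.

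Endothelial genes outside the rule set these cells apart from other cells only slightly. The summed level of 30 such genes was 6913 CPM in marker-positive cells and 6124 CPM in cells with 0 or 1 marker of the isotype library (1.13-fold, 1.11 to 1.15). In PD1/PEM the sums were 8041 and 7322 CPM (1.10-fold, 1.07 to 1.12), and in PDL1/ATZ 11189 and 8375 CPM (1.34-fold, 1.31 to 1.36). Of the 30 genes, 27, 25 and 23 were higher in marker-positive cells, 19 of them in all 3 libraries. At least 1.5-fold with an interval that excludes 1, the size used as a call throughout, was reached by 0, 0 and 3 of them. Over all genes, 0.729%, 1.37% and 2.17% were called higher in this contrast and 1.21%, 1.08% and 2.63% lower.

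Single receptor genes showed the same small size. Flt1, the VEGF receptor 1 gene (chr5:147561604-147726011, minus strand, GRCm38), stood at 1103, 1385 and 1689 CPM in marker-positive cells of isotype, PD1/PEM and PDL1/ATZ, against 952, 1276 and 1172 in cells with 0 or 1 marker. Tek, the angiopoietin receptor, stood at 181, 149 and 306 CPM against 172, 141 and 255. Eng, a co-receptor for BMP and TGF-beta ligands, stood at 464, 437 and 725 CPM against 378, 349 and 542, ratios of 1.23, 1.25 and 1.34. Ptprb, the vascular phosphatase that acts on Tek, stood at 612, 924 and 844 CPM against 579, 911 and 727. In 700 thinned UMIs, the median number from the 30 endothelial genes was 3, 4 and 6 in marker-positive cells and 3, 4 and 5 in cells with 0 or 1 marker.

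Heart muscle transcripts remained in nearly every marker-positive cell. The 16 cardiomyocyte genes summed to 58612 CPM in isotype, 41576 in PD1/PEM and 17937 in PDL1/ATZ, against 62351, 42819 and 25312 CPM in cells with 0 or 1 marker. The ratios were 0.940 (0.933 to 0.947), 0.971 (0.962 to 0.980) and 0.709 (0.701 to 0.716). Myh6, the cardiac myosin heavy chain, had a UMI in 100%, 99.9% and 96.8% of marker-positive cells, and Ttn, the sarcomere spring titin, in 100%, 100% and 95.1%. The 16 muscle genes gave more UMIs than these 30 endothelial genes in the median cell of each library: in isotype 5.89% of non-mitochondrial UMIs came from the 16 muscle genes and 0.676% from the 30 endothelial genes. The same values were 3.89% and 0.810% in PD1/PEM and 1.89% and 1.03% in PDL1/ATZ. In the 362 PDL1/ATZ cells with 7 or more markers the order turned, with 1.28% from muscle and 1.35% from endothelial genes. Because endothelial genes outside the rule stood so little above cells with few markers, and muscle genes so little below them in isotype and PD1/PEM, the label of vascular endothelial cells was not borne out for the whole set, and the cells are named here by the rule alone. What part free RNA, doublets or depth had in this was not tested.

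Fibroblast genes were lower in marker-positive cells in each library, by ratios of 0.938, 0.943 and 0.789, with all 12 genes read in every library. Pericyte genes gave 0.932, 0.971 and 0.860, macrophage genes 0.884, 1.02 and 0.835, and smooth muscle genes 0.969, 0.927 and 0.790. The Schwann cell list gave ratios of 1.07, 0.958 and 0.808, mesothelial genes 0.918, 1.01 and 1.02, and lymphocyte genes stood at only 10.4, 15.9 and 13.4 CPM. In PDL1/ATZ the fibroblast, pericyte, smooth muscle, macrophage and Schwann cell ratios all lay below 1 with intervals that exclude it.

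**Figure D1:**
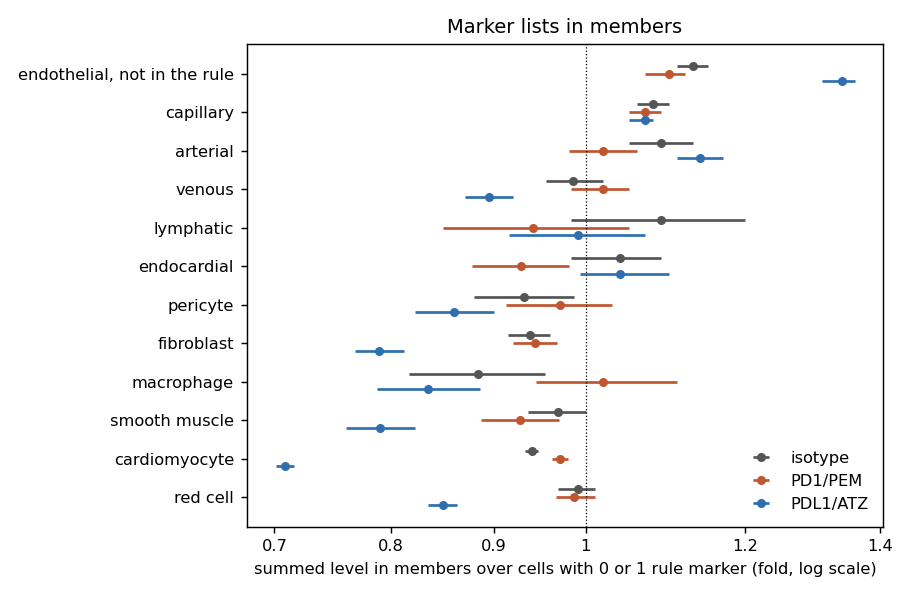
Summed level of each cell type's marker list in marker-positive cells over cells with 0 or 1 rule marker (fold, log scale), 1 point per library with its 95% counting interval. The endothelial list lies at 1.13, 1.10 and 1.34 and the cardiomyocyte list at 0.940, 0.971 and 0.709 in isotype, PD1/PEM and PDL1/ATZ.

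Endothelial content was highest in cells with the most rule markers, but in PD1/PEM it did not rise up to 4 markers. From 0 markers to 7 or more, the sum of the 30 endothelial genes went from 6066 to 8472 CPM in isotype, from 7463 to 10190 in PD1/PEM and from 8418 to 13827 in PDL1/ATZ. Muscle genes went from 62108 to 54918, from 42166 to 36303 and from 25640 to 13272 CPM. In PD1/PEM the 743 cells with 4 markers held 7270 CPM of endothelial and 43460 CPM of muscle genes, no gain over cells with 0 markers. Cells with 5 markers held 7951 and 42307 CPM there. Median depth went up alongside, from 1043 to 3147, from 1154 to 3599 and from 818 to 2648 UMIs. No step appeared at the threshold: cells with 3 markers, just outside the rule, held 6451, 7558 and 9189 CPM of the endothelial genes, and cells with 4 markers, just inside, held 6590, 7270 and 9699. Only 45, 141 and 362 marker-positive cells had 7 or more markers.

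**Figure D2:**
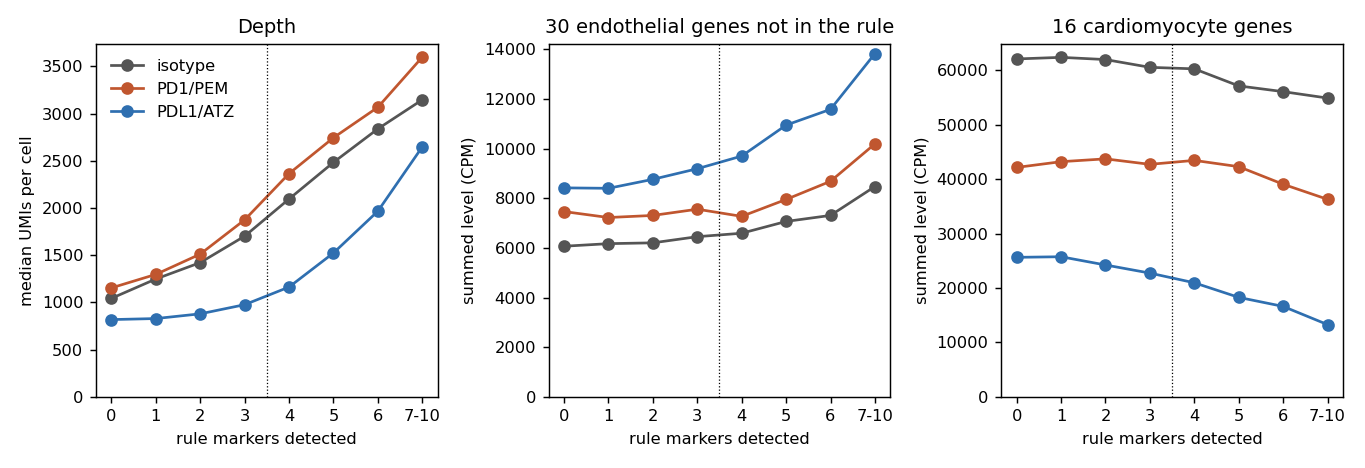
Median UMIs per cell, summed CPM of 30 endothelial genes not in the rule and summed CPM of 16 cardiomyocyte genes, by number of rule markers read, for cells that pass the other parts of the rule; the dotted line is the threshold. From 0 to 7 or more markers the endothelial sum went from 8418 to 13827 CPM and the muscle sum from 25640 to 13272 CPM in PDL1/ATZ. The differences between these ends were smaller in the other libraries, and in PD1/PEM the endothelial sum did not rise up to 4 markers.

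Among the vessel types, the capillary list alone was above 1 with an interval that excludes 1 in all 3 libraries, by a small amount. Capillary genes summed to 8278, 8511 and 10553 CPM, ratios of 1.08 (1.06 to 1.10), 1.07 (1.05 to 1.09) and 1.07 (1.05 to 1.08) to cells with 0 or 1 marker. Of the 18 genes, 17, 13 and 11 were higher. In PDL1/ATZ the excess rested on 1 gene. The list stood at 10553 against 9881 CPM there, and its gene Mgll alone at 2366 against 1349, a larger difference than that of the whole list. Arterial genes gave 1.09, 1.02 (0.981 to 1.06) and 1.14, venous genes 0.985, 1.02 and 0.895, lymphatic genes 1.09, 0.941 and 0.991, and endocardial genes 1.04, 0.928 and 1.04. The fatty acid binding protein gene Fabp4 stood at 1094, 1474 and 2753 CPM in marker-positive cells and at 1037, 1411 and 3139 in cells with 0 or 1 marker, so it was lower in marker-positive cells of PDL1/ATZ. Cd36, the fatty acid translocase, stood at 1448, 1351 and 1296 CPM against 1365, 1370 and 1232.

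After thinning to 700 UMIs, Fabp4 was read in 42.1%, 53.0% and 82.7% of marker-positive cells and in 42.1%, 50.6% and 86.0% of cells with 0 or 1 marker, against 80.9%, 90.0% and 96.0% and 61.2%, 75.3% and 92.2% at full depth. The arterial factor gene Sox17 was read in 1.26%, 2.46% and 2.45% of thinned marker-positive cells and in 2.27%, 3.06% and 3.41% of the others. For Vwf, the von Willebrand factor gene, the thinned shares were 4.49%, 4.92% and 5.81% against 5.28%, 4.42% and 4.96%, and for the lymphatic factor gene Prox1 2.61%, 3.72% and 3.52% against 2.49%, 3.65% and 3.49%. Most of these thinned shares lay close to those of cells with few markers. Sox17 was lower in marker-positive cells of each library. Its intervals in isotype (0.689 to 2.10%) and PDL1/ATZ (1.92 to 3.08%) exclude the share in the others. In PDL1/ATZ the intervals of Fabp4 (81.3 to 84.1%, lower) and Vwf (4.98 to 6.72%, slightly higher) do so too. Whether these shares come from free RNA or from a subset of cells was not tested. Thinning left out 1, 2 and 23 marker-positive cells and 373, 87 and 176 cells with 0 or 1 marker that were shallower than 700 UMIs.

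A set of 45 of 9330 genes (0.482%) was higher in marker-positive cells than in cells with 0 or 1 marker in all 3 libraries, with each interval above 1, and 13 (0.139%) were lower in all 3. The genes named in this paragraph were chosen after their values were seen. Among the 45 were Flt1, Eng, Cyyr1, Shank3 and Ldb2 of endothelium, the neuropilin gene Nrp2 and the mechanically gated channel gene Piezo1. Mgll, the monoglyceride lipase of the capillary list (chr6:88724412-88828360, plus strand), stood at 1229 CPM against 952 in isotype, 1271 against 988 in PD1/PEM and 2366 against 1349 in PDL1/ATZ. Itpkb, an inositol phosphate kinase, stood at 478 against 369, 767 against 606 and 1239 against 653 CPM. Oasl2, an interferon-induced gene, stood at 30.7 against 20.6, 42.1 against 27.5 and 66.1 against 52.7 CPM. The 13 lower genes included Ttn, Myh6, Tnnt2, Atp2a2 and Nppa, all of heart muscle. Outside the genes of the rule, which were not among the 9330, no gene was called in the same direction in all 3 libraries.

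Cells with 4 or more rule markers that also held an Npr3 UMI numbered 271, 328 and 422 and were set aside by the rule. Compared with them, 6 of 7320 genes (0.0820%) were higher in marker-positive cells in all 3 libraries and 6 (0.0820%) lower. Nrg1, a growth factor gene of endocardium, was among the lower ones at 48.5, 38.7 and 95.6 CPM against 132, 56.7 and 145, and was picked after its values were seen. Endocardial genes summed to 0.895 (0.821 to 0.978), 0.896 (0.836 to 0.961) and 0.644 (0.605 to 0.686) times the level in Npr3 cells. As examples from that list in PDL1/ATZ, Tmem108 stood at 105 CPM in marker-positive cells and 316 in Npr3 cells, and Cdh11 at 88.2 and 183. Not every gene of the list went this way, with Ackr3 at 141 and 130 CPM there. Cdh11 was not called in isotype (0.713, 0.504 to 1.04) or PD1/PEM (0.844, 0.635 to 1.15). The rule made this contrast through Npr3. The 30 endothelial genes gave ratios of 0.991 (0.956 to 1.03), 0.958 (0.932 to 0.985) and 1.01 (0.989 to 1.03). They were thus slightly lower in marker-positive cells of PD1/PEM and did not separate the populations in the other libraries.

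Cd274, the gene of PD-L1 (chr19:29367455-29388095, plus strand), was near the limit of detection. It stood at 15.4, 20.1 and 19.7 CPM in marker-positive cells and 14.6, 14.8 and 17.6 CPM in cells with 0 or 1 marker. The ratios between these populations were 1.06 (0.653 to 1.67), 1.34 (0.821 to 2.34) and 1.12 (0.769 to 1.67), so no difference was detectable at this depth. Between libraries, the log2 ratio of Cd274 in marker-positive cells was 0.38 for PD1/PEM and 0.35 for PDL1/ATZ against isotype, with intervals of the fold of 0.843 to 2.08 and 0.850 to 2.01. Pdcd1 had a UMI in 0 of 1114 isotype cells (an upper exact 95% bound of 0.331%, or 0.269% for a floor of 3 counts, on cells with a UMI and not on cells that express the gene), in 4 PD1/PEM cells (0.252%) and in 4 PDL1/ATZ cells (0.137%).

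The next question was how marker-positive cells of the checkpoint libraries differed from those of the isotype library. Both comparisons share the isotype library. Since the marker-positive cells carried so much common RNA, many ratios are set beside the same ratio in cells with 0 or 1 marker. Where no such value is given, the ratio is that of marker-positive cells alone. Log2 ratios use a pseudocount of 0.5 UMIs and need 50 UMIs over the 2 libraries.

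Between PD1/PEM and isotype, 549 of 10090 genes (5.44%) were called higher in marker-positive cells and 453 (4.49%) lower. In cells with 0 or 1 marker the counts were 530 (5.32%) and 508 (5.10%). Of 524 higher genes that were also measured in cells with 0 or 1 marker, 467 went the same way there, as did 393 of 447 lower genes, and 237 and 178 were called there too. The median log2 ratio over all genes was 0.01 in both populations. Early-response genes, ERK feedback genes and several endothelial transcription factors were higher in PD1/PEM, and genes of heart muscle and of oxidative phosphorylation were lower.

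Several transcription factors of endothelium were higher in PD1/PEM. Hlx, a homeobox factor (chr1:184727140-184732619, minus strand), stood at 23.5 CPM in PD1/PEM and 4.46 in isotype marker-positive cells (5.02-fold, 2.64 to 12.0), and at 23.3 and 4.13 CPM in cells with 0 or 1 marker. Dach1, a factor linked to growth of coronary arteries (chr14:97786853-98169765, minus strand), stood at 578 and 218 CPM (2.65-fold, 2.39 to 2.95), and at 516 and 202 in cells with few markers. Meox2, a homeobox factor of heart capillaries, stood at 340 and 165 CPM (2.05-fold, 1.81 to 2.33). Fli1, an Ets factor, stood at 787 and 404 CPM. Of 19 measured genes in the list of endothelial transcription factors, 6 were called higher and 1 lower, with a median log2 ratio of 0.34 in marker-positive cells and 0.30 in cells with 0 or 1 marker.

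The lower call in that list was Sox18, a SoxF factor of vessel and lymphatic development (chr2:181669836-181671640, minus strand). It stood at 18.0 CPM in PD1/PEM and 57.5 in isotype marker-positive cells (3.18-fold lower, 2.31 to 4.45). In cells with 0 or 1 marker it stood at 10.6 and 44.1 CPM in PD1/PEM and isotype. Its relative Sox7 stood at 51.3 and 75.8 CPM (log2 ratio -0.56), and Sox17 at 52.8 and 44.6 CPM (0.24, interval of the fold 0.912 to 1.54), neither of which was called.

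Among growth factor genes, 5 of 17 in the VEGF and angiopoietin list were called higher and 3 lower, with a median of -0.16, which was 0.15 in cells with 0 or 1 marker. Nrp1, a VEGF co-receptor, was higher at 672 CPM in PD1/PEM against 442 in isotype, and Angpt1, a ligand of Tek, at 127 against 63.4. Vegfa itself was lower, at 129 against 198 CPM, and Fgfr3, a fibroblast growth factor receptor, at 31.1 against 69.8 CPM (2.24-fold lower, 1.73 to 2.93). Flt1 stood at 1385 against 1103 CPM, a log2 difference of 0.33 that was not called. Kdr stood at 515 against 405 CPM (0.35), but it is a gene of the rule, so its level describes the selection and it was left out of the calls. The sign of the list median was not stable: it was 0.23 among cells with 7 or more markers, 0.16 among cells with over 25% mitochondrial UMIs and 0.07 after thinning to 700 UMIs.

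Early-response genes, transcribed within minutes of a stimulus, were higher in PD1/PEM in both populations. Of 28 genes in the list, which also holds heat shock genes, 23 were higher and 11 called, none called lower, and the median log2 ratio was 0.48 in marker-positive cells and 0.48 in cells with 0 or 1 marker. Egr3, a zinc finger factor (chr14:70077203-70082614, plus strand), stood at 203 CPM in PD1/PEM and 43.6 in isotype, a log2 ratio of 2.21. Egr1 stood at 2710 and 1149 CPM, Egr2 at 44.5 and 8.92, and Apold1, which endothelium switches on early, at 653 and 186. Dusp1, a phosphatase that switches off MAP kinases, stood at 788 and 379 CPM (2.08-fold, 1.92 to 2.25). In PDL1/ATZ the same list had a median of -0.52, with 12 genes called lower and none higher, so the checkpoint libraries lay on either side of isotype.

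Feedback inhibitors of the ERK pathway followed the same direction. Of 9 measured genes, 8 were higher in PD1/PEM and 5 called, with a median of 0.78, against 0.61 in cells with 0 or 1 marker. Errfi1, an inhibitor of the EGF receptor (chr4:150853919-150868892, plus strand), stood at 748 CPM in PD1/PEM and 245 in isotype marker-positive cells (3.05-fold, 2.77 to 3.37) and at 791 and 260 in cells with 0 or 1 marker. Spry4 stood at 124 and 41.6 CPM (2.98-fold, 2.36 to 3.83), Spry2 at 53.1 and 28.7, Dusp6 at 68.9 and 40.1, and Dusp5 at 48.5 and 27.2. Each of these values in marker-positive cells had a matching direction in cells with few markers.

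The 250 bases before the start sites of these genes were searched for the serum response element (the CArG box, 10 bases, which reads the same class of letters on both strands), through which serum response factor acts on early genes. Of the 16 early-response and ERK feedback genes called higher, 12 matched a window of RefSeq, build GRCm38.p6, and 2 of the 12 genes held a match in at least 1 window (16.7%), against 439 of 27025 genes in the whole table (1.62%), where genes differ in how many windows they have. They are shown because they are the windows with a match. Capitals mark the element, with 30 bases on each side. Those of Dusp5 lie at chr19:53529033-53529112 on the plus strand, with 2 matches side by side that begin 82 and 72 bases before the start site. That of Egr2 lies at chr10:67537464-67537533 on the plus strand, with 1 match that begins 72 bases before the start, and 4 of the 5 Egr2 windows held a match. A match describes the letters only.
Dusp5: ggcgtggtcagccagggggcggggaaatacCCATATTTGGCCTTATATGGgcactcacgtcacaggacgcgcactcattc
Egr2: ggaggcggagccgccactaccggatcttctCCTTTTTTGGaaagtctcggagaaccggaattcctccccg

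Type I interferon and activation genes were also higher on balance in PD1/PEM. In the type I interferon list 13 of 17 measured genes were higher and 4 called, with a median of 0.38, against 0.30 in cells with 0 or 1 marker. Isg15, a ubiquitin-like antiviral protein, stood at 22.0 CPM in PD1/PEM and 11.9 in isotype, Ifi27l2a at 94.0 and 55.0, and Rsad2, the antiviral enzyme viperin, at 47.3 and 29.2. The interferon gamma list was not higher: 5 of 13 genes were higher and 8 lower, with 1 called and a median of -0.06, against 0.25 in cells with 0 or 1 marker. In the endothelial activation list 6 of 20 genes were called higher and 1 lower, with a median of 0.35. Ccl7, a monocyte chemokine, stood at 26.8 and 6.44 CPM. The lower call was F3, tissue factor, at 7.63 and 16.3 CPM. Macrophage genes were higher alongside, with 9 of 11 higher, Cd68 and Lyz2 called, a median of 0.35 and a summed level of 638 CPM in PD1/PEM and 482 in isotype. All 12 were read in marker-positive cells, and their part in these lists was not tested. Adhesion molecules for leukocytes were not called: Icam1 stood at 177 and 180 CPM and Vcam1 at 54.6 and 45.1. No gene of the 18 in the MHC class I and peptide loading list was called (median 0.05), with H2-K1 at 539 and 588 CPM and B2m at 589 and 599.

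Complement and coagulation genes had a median of 0.33 with 5 of 16 called higher, among them C4b at 83.0 CPM in PD1/PEM and 50.5 in isotype. The lists that follow had medians near that of all genes. Notch genes had 0.03, with Hes1, a Notch target, called higher at 220 and 106 CPM. Flow-responsive genes had -0.01, with Klf2, a factor induced by shear stress, higher at 650 and 361 CPM and Nos3, nitric oxide synthase, at 92.1 and 90.2. The flow-responsive median was not stable, at 0.31 after thinning to 700 UMIs and 0.39 among cells with 7 or more markers. BMP and TGF-beta genes had -0.07 with 1 call, Smad6, lower at 92.7 and 156 CPM. Fatty acid handling (-0.01), basement membrane (0.04), caveolae (-0.06) and junction genes (0.04) each had at most 1 call in a direction. Among vessel types, arterial genes had a median of 0.03, with 2 of 20 called higher and 0 lower. Venous genes had 0.09, with 1 of 14 called in each direction. Over all genes, 5.44% were called higher and 4.49% lower. Efnb2, an arterial ligand, was higher at 178 and 93.1 CPM. Its receptor Ephb4, a venous marker, was lower at 51.3 and 93.1, while Aplnr, also of the venous list, was called higher.

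Muscle RNA moved the opposite way and did so alike in both populations. All 16 cardiomyocyte genes were lower in PD1/PEM and 5 were called, with a median of -0.49 in marker-positive cells and -0.51 in cells with 0 or 1 marker. Nppa, the atrial natriuretic peptide gene, stood at 1418 CPM in PD1/PEM and 4479 in isotype (3.16-fold lower, 3.05 to 3.27), and Nppb, the B-type peptide gene (chr4:147985788-147987205, plus strand), at 32.9 and 178 (5.38-fold lower, 4.34 to 6.76). All 20 nuclear genes of oxidative phosphorylation were lower, 3 of them called, with a median of -0.47. Smooth muscle genes had a median of -0.52, and red cell genes 0.88 with 4 of 5 called higher. Whether these other cell types' RNA had a part in the endothelial ratios was not tested.

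Among the other genes that the naming rule picked were Nav3 (256 CPM in PD1/PEM and 107 in isotype), the ubiquitin ligase gene Rnf125 (90.3 and 35.7), Kctd12b (78.1 and 31.2) and Adam22 (56.7 and 21.8). Clec14a, an endothelial lectin, was higher at 68.3 and 26.3 CPM, although its level in marker-positive cells was below that in cells with 0 or 1 marker, 76.2 and 32.2. On the lower side were Ryr3, a calcium release channel (158 and 330), Hspa12b, a heat shock protein of endothelium (77.2 and 162), Tead4, a Hippo pathway factor (36.9 and 83.2), Zbtb46 (81.8 and 162) and Uck2 (33.6 and 70.3). Xirp1, of the intercalated disc (46.4 and 105), and the chaperone gene Dnajb5 (14.0 and 36.7) were lower and weighted to other cells. Each gene named by the rule in this comparison went the same way in cells with 0 or 1 marker.

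**Figure D3:**
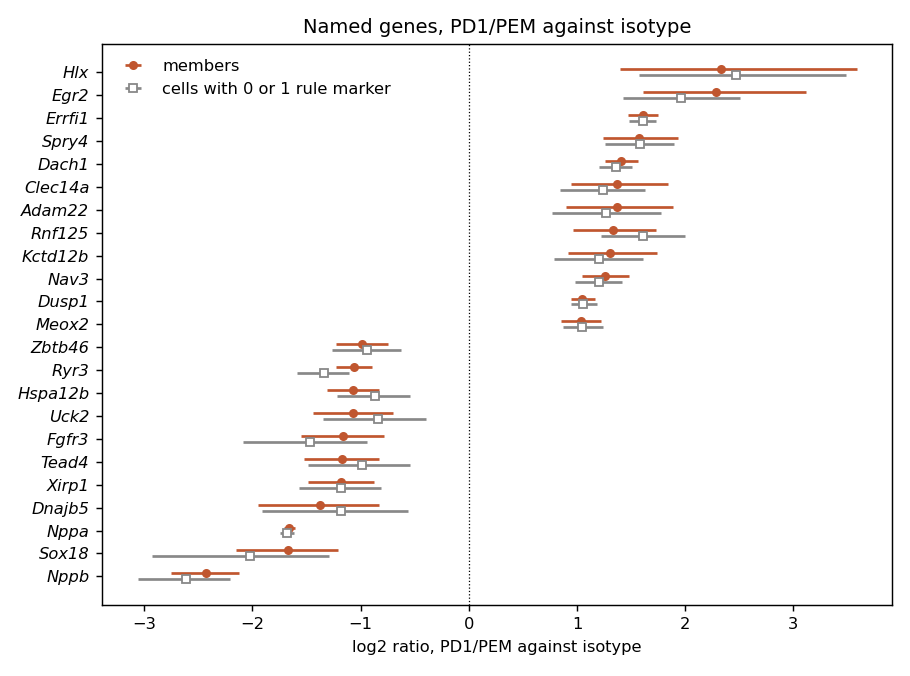
Log2 ratio of PD1/PEM to isotype for genes named by the rule, in marker-positive cells (filled) and in cells with 0 or 1 rule marker (open), with 95% counting intervals. The ratios run from 2.33 for Hlx to -2.43 for Nppb, and the open symbols lie on the same side of 0 for each gene.

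Between PDL1/ATZ and isotype the differences were broader. Over the 23296 gene symbols read in all 3 libraries, and scaled to their UMIs, 2730 of 11175 genes (24.4%) were called higher in marker-positive cells and 1396 (12.5%) lower, against 2354 (22.0%) and 1131 (10.6%) in cells with 0 or 1 marker. Of called genes measured in both populations, 98.2% of the higher and 96.8% of the lower went the same way in cells with few markers. The median log2 ratio over all genes was 0.18, and 0.51 when scaled to all UMIs or -0.01 when scaled to the median gene. The share of calls that were higher was 66.2%, and 87.2% and 46.7% under those scalings, so single directions are to be read against 0.18.

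Many of the named higher genes share exons with a neighbour. Of the 12 named higher genes, 10 have exons that overlap another gene on the same strand in GENCODE M21, against 4.07% of all genes compared and none of the genes named by the rule in PD1/PEM. They were Cox16 (217 CPM in PDL1/ATZ and 8.54 in isotype), Stard13 (632 and 53.8), Rab43 (84.6 and 5.53), Umad1 (129 and 10.6), Atf7 (245 and 25.6), Pelo (41.3 and 4.02), Adnp (95.9 and 1.51), Pakap (100 and 2.51), Cpt1b (41.1 and 0.503) and Cpne1. Cpne1 had 304 UMIs in PDL1/ATZ and 0 in isotype, at least 44.5-fold higher against a floor of 3 counts over the isotype cells. Adnp had 3 isotype UMIs (54.6-fold, 21.6 to 310) and Cpt1b 1 (54.7-fold, 14.5 to 3247). These 10 are uncertain, since reads in the overlap can be given to either gene or to none, and no source used here gives the gene annotation behind each library. The libraries read different numbers of symbols, 25735 in isotype, 25528 in PD1/PEM and 27677 in PDL1/ATZ. Without overlapped genes 2534 were called higher and 1357 lower.

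Among genes with no such overlap, ranked by the lower limit of the fold's interval, Gse1, Ccdc85b, Dach1 and Slc14a2 came first (an order taken after the values were seen). Gse1 stood at 363 CPM in PDL1/ATZ and 27.1 in isotype marker-positive cells (13.3-fold, 10.2 to 17.9), and at 216 and 24.9 in cells with 0 or 1 marker. Ccdc85b stood at 106 and 10.1 CPM (10.3-fold, 6.76 to 17.4). Dach1 stood at 1227 and 221 CPM (5.54-fold, 5.03 to 6.13), and at 861 and 205 in cells with few markers. Slc14a2, a urea transporter, stood at 23.9 and 2.01 CPM on 4 isotype UMIs (10.6-fold, 4.50 to 44.4). Sema6a, a semaphorin guidance molecule, stood at 692 and 153 CPM (4.51-fold, 4.01 to 5.10), and the ubiquitin ligase gene Rnf220 at 290 and 69.3.

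Endothelial genes were higher in PDL1/ATZ. Of the 30 genes not in the rule, 25 were higher, 16 called higher and 2 called lower, with a median log2 ratio of 0.64, against 0.50 in cells with 0 or 1 marker. Erg, an Ets factor that keeps endothelial identity, stood at 218 CPM in PDL1/ATZ and 78.4 in isotype, a log2 ratio of 1.47. Flt1 stood at 1721 and 1119 CPM (0.62), Tek at 311 and 184 (0.76), and Eng at 738 and 470 (0.65). The lower calls were Sox18, at 35.1 and 58.3 CPM, and the junction molecule Esam, at 130 and 210. In the endothelial transcription factor list 10 of 19 genes were called higher, with a median of 0.83, and the median stayed above 0 under both other scalings (1.16 and 0.64).

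In the VEGF and angiopoietin list 8 of 17 genes were called higher and 4 lower, with receptors and ligands on both sides and a median of 0.47. The co-receptor gene Nrp1 stood at 1362 CPM in PDL1/ATZ and 448 in isotype, Nrp2 at 412 and 191, and the apelin receptor gene Aplnr at 46.6 and 10.1. The ligand genes Vegfc (177 and 43.2) and Angpt2 (38.4 and 17.1), named after their values were seen, were also higher. Vegfa was lower, at 51.0 and 201 CPM, a log2 ratio of -1.98, as were Vegfb at 60.1 and 101 and the receptor gene Fgfr3 at 31.4 and 70.9. Aplnr was also higher in PD1/PEM, at 21.4 CPM against 9.91 in isotype. Vegfa was lower there too, with the ratio of -0.62, and both values rest on the shared isotype library.

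Capillary genes were mixed, with 8 of 18 called higher and 3 lower and a median of 0.44. Fabp4 stood at 2805 CPM in PDL1/ATZ and 1110 in isotype, Mgll at 2411 and 1246, and Btnl9, a butyrophilin of capillaries, at 214 and 87.9. Lpl, lipoprotein lipase, was lower at 1243 and 2106 CPM, and the potassium channel gene Kcna5 at 7.07 and 24.1 (3.39-fold lower, 2.14 to 5.52). Arterial genes had a median of 0.24 with 7 of 20 called higher and 4 lower. Venous genes had -0.03 with 4 and 3 of 14, and endocardial genes -0.05 with 3 and 3 of 12. Over all genes, 24.4% were called higher and 12.5% lower, so such counts are to be read against these shares. The venous and endocardial medians turned above 0 under some alternatives, up to 0.3 and 0.41. Of the basement membrane genes 13 of 16 were lower, with a median of -0.39. In cells with 0 or 1 marker 9 were lower and 7 higher, with a median of -0.24. The 2 called lower, among them Col15a1 at 83.5 and 162 CPM, were no more than the 12.5% of all genes. The laminin gene Lama4 was called higher at 450 and 232.

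Type I interferon genes were higher in both populations. All 18 measured genes of the type I interferon list were higher and 8 called, with a median of 0.58 in marker-positive cells and 0.68 in cells with 0 or 1 marker, and of 0.91 and 0.39 under the other scalings. Isg15 had a log2 ratio of 1.29, Oasl2 stood at 67.4 CPM in PDL1/ATZ and 31.2 in isotype, and Ifitm3, which blocks virus entry, at 319 and 169. In the MHC class I and peptide loading list 7 of 18 genes were called higher and 3 lower, with a median of 0.30. The immunoproteasome genes Psmb8 (65.0 and 28.1 CPM) and Psmb9 (32.0 and 13.1) were higher. The main class I genes were not called, with H2-K1 at 478 and 596 CPM, H2-D1 at 334 and 369 and B2m at 666 and 608. The interferon gamma list had a median of 0.18, the same as all genes, and 0.06 without overlapped genes, with 9 of 14 genes higher and 5 lower. Of the 14, 6 were called higher and 1 lower, and 4 and 1 without overlapped genes. In cells with 0 or 1 marker the list's median was 0.47, with 12 genes higher and 2 lower. The genes called higher were the factor gene Irf1, at 202 and 122 CPM, Gbp5, Gbp7, Iigp1, Gbp4 and Gbp6. Gbp4 and Gbp6 overlap neighbouring genes and are uncertain. The GTPase gene Irgm1 was called lower at 12.2 and 20.1.

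Genes induced by glucocorticoids were lower. Of 14 genes 9 were called lower and none higher, with a median of -0.81 in marker-positive cells and -0.82 in cells with 0 or 1 marker, and of -0.49 and -1.0 under the other scalings. Fkbp5, a chaperone that dampens the receptor, stood at 188 CPM in PDL1/ATZ and 402 in isotype, Tsc22d3 at 143 and 272, Zbtb16 at 978 and 1931, and the metallothionein genes Mt1 at 131 and 346 and Mt2 at 43.7 and 180. Cdkn1a, the cell cycle inhibitor p21 (chr17:29090976-29100727, plus strand), stood at 47.7 and 158 CPM (3.30-fold lower, 2.77 to 3.95). In PD1/PEM the same list had a median of 0.04.

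Early-response and heat shock genes were lower too, with Fos at 395 CPM in PDL1/ATZ and 713 in isotype, Egr1 at 655 and 1166, and Hspa1a, an inducible heat shock protein, at 64.5 and 124. Of hypoxia and glycolysis genes 9 of 18 were called lower and none higher, with a median of -0.62, among them Hk2, hexokinase 2, at 44.2 and 209 CPM and Ldha, lactate dehydrogenase, at 138 and 270. Endothelial activation genes had a median of -0.30 with 2 called higher and 3 lower, and 0.03 when scaled to all UMIs. Complement and coagulation genes had -0.17 and endothelial-to-mesenchymal genes -0.16, and both turned above 0 under that scaling (0.16 and 0.17). Thbd, the anticoagulant receptor thrombomodulin, was lower at 80.2 and 174 CPM.

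Markers of other cell types moved in both directions in PDL1/ATZ, with muscle and fibroblast RNA lower. All 16 cardiomyocyte genes were called lower, with a median of -1.48 in marker-positive cells and -1.12 in cells with 0 or 1 marker, and Myh6 stood at 3052 CPM in PDL1/ATZ and 10146 in isotype. Fibroblast genes had a median of -0.76 with 8 of 11 called lower, and nuclear oxidative phosphorylation genes -0.58 with 10 of 20. Macrophage genes had a median of 0.42 with 4 of 11 called higher (642 CPM in PDL1/ATZ and 482 in isotype, summed). Pericyte genes had 0.41 with 3 of 11 (1118 and 889) and red cell genes 0.63 with 3 of 5 (8191 and 5338). Over all genes, 24.4% were called higher. The part of these cell types in the endothelial and interferon ratios was not tested. Since CPM is a share of the cell's RNA, a lower muscle share and higher shares of other genes cannot be told apart in these sums.

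The other lower genes named by the rule included Ppargc1a, a coactivator of mitochondrial genes, at 44.0 CPM in PDL1/ATZ and 1701 in isotype (38.6-fold lower, 33.5 to 44.9), and Ptp4a1, a phosphatase, at 0.884 and 101 with 4 UMIs left in PDL1/ATZ. Flnc, muscle filamin, stood at 28.3 and 324 CPM, and Fam220a at 1.99 and 39.2. Smaller ratios were found for Pank1, a coenzyme A enzyme (28.3 and 90.5), Noct, a clock-linked gene (32.7 and 99.5), the transferrin receptor gene Tfrc (15.7 and 49.2), the phosphodiesterase gene Pde10a (169 and 419), the transporter gene Slc47a1 (9.28 and 30.2) and Fam160a1 (4.64 and 17.6), which overlaps another gene. The symbols Ptp4a1 and Fam220a each stand for 2 gene models of GENCODE M21 that share a strand and nearly the same span. Both values are therefore uncertain as well, and the counts of overlapped genes, made by symbol, do not include them. All 24 named genes went the same way in cells with 0 or 1 marker.

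**Figure D4:**
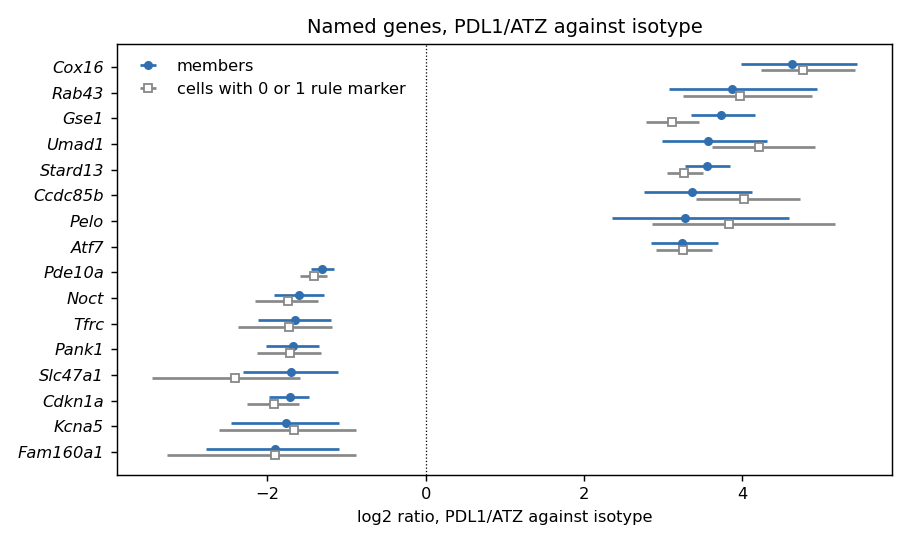
Log2 ratio of PDL1/ATZ to isotype for the 16 named genes weighted to marker-positive cells, in those cells (filled) and in cells with 0 or 1 rule marker (open), with 95% counting intervals. Cox16, Rab43, Umad1, Stard13, Pelo and Atf7, in the upper group, overlap other genes on their strand; the lower group runs from -1.31 for Pde10a to -1.91 for Fam160a1.

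**Figure D5:**
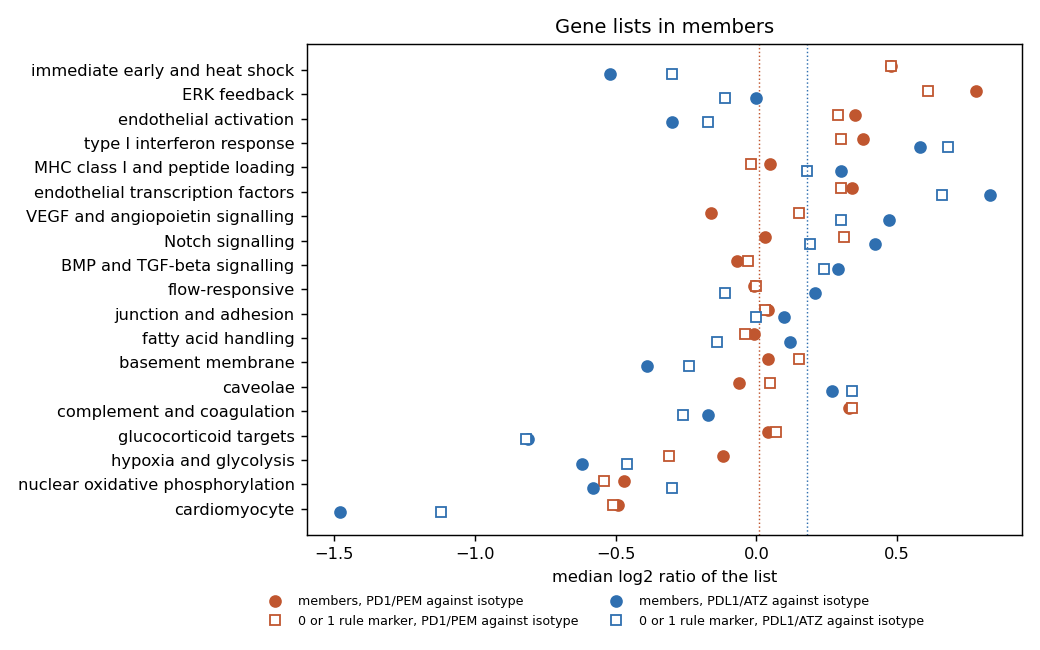
Median log2 ratio of each gene list against isotype in marker-positive cells (filled) and cells with 0 or 1 rule marker (open); dotted lines are the medians over all genes, 0.01 for PD1/PEM and 0.18 for PDL1/ATZ. Early-response genes lie at 0.48 and -0.52, type I interferon genes at 0.38 and 0.58 and cardiomyocyte genes at -0.49 and -1.48, and the open symbols lie near the filled ones in most lists.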

How the data were processed

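Hearts were digested, pooled and run as 1 droplet 3′ single-cell RNA library per group, per the labels' protocols. The authors deposited UMI counts per gene and cell, made with Cell Ranger and Seurat on mm10, per the submitters' processing notes. Their versions, the annotation and the cell filters were not given in the sources; no deposited cell held over 2499 genes or over 30.0% mitochondrial UMIs. Gene symbols, barcodes and matrices were read as deposited (30415 symbols). The members and the gene lists were chosen with earlier results of these data known, so no list is independent support.

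Counts of marker-positive cells were summed per library and scaled to CPM over non-mitochondrial UMIs. Cells with 0 or 1 marker were summed alike. They were not filtered on Npr3 or the other excluded genes, except where cells are split by number of markers. Ratios have exact conditional binomial 95% intervals, and shares of cells exact Clopper-Pearson intervals. Both cover counting error only. A gene was called at 1.5-fold with an interval that excludes 1, and compared where 2 libraries held 50 UMIs. The floor was 3 counts and the pseudocount 0.5. PDL1/ATZ was compared over symbols read in all 3 libraries (98.5%, 98.6% and 98.2% of non-mitochondrial UMIs), so isotype levels differ slightly between comparisons. With 1 library per group no p-value or replicate spread exists, and the 3 hearts of a pool cannot be separated.

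Called genes were ranked, per comparison and direction, by the limit of the fold's interval nearest no difference, not by the size of the fold. Named genes were the first 8 weighted to marker-positive cells and the first 4 weighted to other cells. Also named were the rule markers, up to 5 called or most abundant members of each list, Cd274 and Pdcd1. Some genes picked by this rule are not reported here. Doublets were scored with Scrublet in scanpy 1.11.5 and kept. Scripts used Python 3.11.15, numpy 2.4.6, scipy 1.17.1, pandas 2.3.3 and matplotlib 3.10.9, and were tested on simulated data. Exon overlaps and positions came from GENCODE M21 (GRCm38). Alternatives changed the number of markers, cell filters, depth, scaling, UMI minimum and fold.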

Additional observations from a re-analysis of the deposited data

How the results depend on the processing

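No paired analysis was possible because each group has 1 library and the labels give no replicate numbers, and no library could be left out. The share of marker-positive cells in isotype, PD1/PEM and PDL1/ATZ was 25.8%, 39.2% and 41.7% with 3 or more markers, 4.64%, 13.2% and 13.6% with 5 or more, and 10.1%, 23.1% and 22.1% without doublets. With at most 25% mitochondrial UMIs it was 3.88% and 7.25% in isotype and PD1/PEM. Alternatives chosen after seeing the data gave 0.473%, 2.21% and 3.12% with 7 or more markers, 0.931%, 2.59% and 9.53% at 700 UMIs, and 0.970%, 2.25% and 5.16% at 500 non-mitochondrial UMIs. In PD1/PEM the calls were 327 higher with at most 25% mitochondrial UMIs, 316 higher and 248 lower at 700 UMIs, 232 and 189 with 200 UMIs or more, 119 and 55 at 2-fold, and 178 and 121 with 7 or more markers. In PDL1/ATZ they were 1484 higher at 700 UMIs, 4824 and 706 scaled to all UMIs, 1809 and 2061 scaled to the median gene, 1451 and 880 with 200 UMIs or more, 1286 and 621 at 2-fold, and 650 and 513 with 7 or more markers. Of 754 list medians under alternatives 46 had another sign than the reported one, 33 of them where the reported median was under 0.1 from 0. Those at least 0.1 from 0 on both sides were endocardial genes in PD1/PEM (-0.21 with at most 25% mitochondrial UMIs), VEGF and angiopoietin genes in PD1/PEM (0.23 with 7 or more markers and 0.16 with over 25% mitochondrial UMIs), checkpoint ligands in PDL1/ATZ (-0.24 at 700 UMIs), and complement (0.16) and endothelial-to-mesenchymal genes (0.17) in PDL1/ATZ scaled to all UMIs; the cause was not tested. Turns to a value under 0.1 from 0 included VEGF genes in PD1/PEM (0.07 at 700 UMIs) and endothelial activation in PDL1/ATZ (0.03 scaled to all UMIs). Some medians reported near 0 moved further. Flow-responsive genes in PD1/PEM went from -0.01 to 0.39 with 7 or more markers, 0.31 at 700 UMIs and 0.21 with 5 or more markers. In PDL1/ATZ endocardial genes went from -0.05 to 0.41 with 7 or more markers, and venous genes from -0.03 to 0.3 scaled to all UMIs. Of the named genes' values, 258 of 286 in PD1/PEM and 238 of 260 in PDL1/ATZ stayed within their counting interval and none changed sign. These counts pool all settings. With 7 or more markers only 8 of 22 values in PD1/PEM and 9 of 20 in PDL1/ATZ stayed within it.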
